A study of Mus musculus with 15 samples.

Results

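The genes described here are 10 transcripts of the NRF2 antioxidant program in bone marrow-derived macrophages (BMDMs): Nfe2l2, which encodes NRF2 itself, and Slc7a11, Gclc, Gclm, Gsr, Txnrd1, Srxn1, Prdx1, Hmox1 and Nqo1, which are widely used as NRF2 target genes. They were chosen by name, all 10 were found among the 55385 genes of the count table, and all 10 passed the filter on low counts that left 13005 genes for testing. BMDMs were grown from BALB/c mice aged 6 weeks that carried floxed Stat5 alleles, either without Cre (STAT5fl/fl, 2 mice) or with the Csf1r-iCre transgene (STAT5cKO, 3 mice). Each culture was held for 2 h in serum-free DMEM alone, in DMEM with 20 ng/mL rmGM-CSF, a cytokine that activates STAT5, or in 4T1 CM, the medium that serum-starved 4T1 mouse mammary tumor cells had conditioned. This gave 15 RNA-seq libraries in 6 groups of genotype and treatment. The base medium of 4T1 CM and its dilution are not stated, and the methods give RPMI for growing 4T1 cells. In comparisons of 4T1 CM with DMEM or GM-CSF, factors from the tumor cells therefore cannot be told apart from the medium itself. All groups share the floxed alleles, Csf1r-iCre is active in myeloid cells and also in some lymphocytes, and another STAT5fl/fl replicate that the methods describe as removed in quality control is not analysed here.

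NRF2 is a transcription factor that is made continuously and destroyed continuously: KEAP1, a sensor with reactive cysteines, holds it for the CUL3 ubiquitin ligase. When oxidants or electrophiles modify KEAP1, newly made NRF2 escapes, pairs with a small MAF protein and binds antioxidant response elements in the promoters of enzymes that make glutathione, reduce thioredoxin, repair peroxiredoxins and break down heme. In macrophages, which produce oxidants themselves, this program limits oxidative damage and dampens inflammatory gene expression. Because NRF2 is controlled largely as a protein, the level of its transcript and the levels of its target transcripts are separate measurements.

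Library totals ranged from 16016736 to 22883108 counts, so that 1 CPM (CPM being a count scaled to a common library total) stood for 16 to 22.9 counts. Levels are given as CPM normalized between libraries by the median-ratio (RLE) method. Differences come from edgeR's quasi-likelihood test over all 15 libraries, as log2 fold changes ± standard error, and a gene is said to have risen, fallen or differed only where the p-value adjusted over the 13005 genes was under 0.01. The targeted genes followed the labels: Stat5a lay between 29 and 45.1 CPM in the STAT5fl/fl libraries and at 0.142 CPM or less in the STAT5cKO libraries, and Stat5b between 60.9 and 77.8 CPM against 0.189 CPM or less. All 7 macrophage markers exceeded 1 CPM in every library. Their summed level was 23800 to 27200 CPM in STAT5fl/fl and 29900 to 42600 CPM in STAT5cKO, with Lyz2 as the most abundant. Markers of other cells were low beside these. The mast cell list, mainly Kit, summed to 6.29 to 23.5 CPM in STAT5fl/fl and 1.18 to 7.48 CPM in STAT5cKO. The dendritic cell list summed to 0.801 to 0.818 CPM in DMEM and 1.88 to 4.42 CPM with GM-CSF in STAT5fl/fl. In STAT5cKO it summed to 0.964 to 1.13 CPM in DMEM and 2.67 to 3.19 CPM with GM-CSF. With 4T1 CM it lay between 1.18 and 2.31 CPM. The neutrophil list summed to 2.45 CPM or less with Ly6g at 0, the NK cell markers were at 0, and the fibroblast list summed to 1 to 2.27 CPM in STAT5fl/fl and 2.55 to 8.55 CPM in STAT5cKO. The mammary tumor epithelium list, led by Cdh1, summed to 0.136 CPM or less in DMEM, to 1.18 to 1.43 CPM with GM-CSF in STAT5fl/fl but 0.049 CPM or less in STAT5cKO, and to 1.23 to 4.38 CPM with 4T1 CM. The T cell list summed to 8.9 to 10.4 CPM in STAT5fl/fl and 5.8 to 7.35 CPM in STAT5cKO, with Cd4 as its main part and Cd8a at 0. In bulk RNA a lower level cannot be told apart as fewer cells of a type or less RNA per cell.

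The 10 genes did not move as a block. Nfe2l2 and Txnrd1 rose more than 2-fold with GM-CSF in both genotypes. With 4T1 CM, Nfe2l2 was close to or under its DMEM level, while Slc7a11 and Srxn1 reached their highest levels. Txnrd1 and Slc7a11 rose with both stimuli in both genotypes. Hmox1 was lower with 4T1 CM than with GM-CSF in both genotypes, and Gsr, Prdx1 and Nqo1 did not pass the test for any treatment. Between genotypes, Srxn1 was higher in STAT5cKO macrophages under every treatment.

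Per kilobase of exon, the most abundant of the 10 was Prdx1, with a mean of 235 RPKM (CPM divided by the summed exon length in kilobases) over the 15 libraries, followed by Nfe2l2 at 149 RPKM and Hmox1 at 112 RPKM. Srxn1 and Txnrd1 averaged 55.3 and 52.5 RPKM, Gsr 15.7 RPKM and Gclc 12.8 RPKM. The lowest were Gclm at 4.65 RPKM, Slc7a11 at 3.1 RPKM and Nqo1 at 1.45 RPKM. The widest span was that of Slc7a11, whose highest library held 7.26 times the normalized CPM of its lowest, against 4.06 times for Srxn1, 2.96 times for Nfe2l2, 2.87 times for Txnrd1 and 1.3 times for Gsr. Below, values within a group are given in CPM in the order of the mice, 112 and 113 for STAT5fl/fl and 114, 115 and 116 for STAT5cKO.

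**Figure D1:**
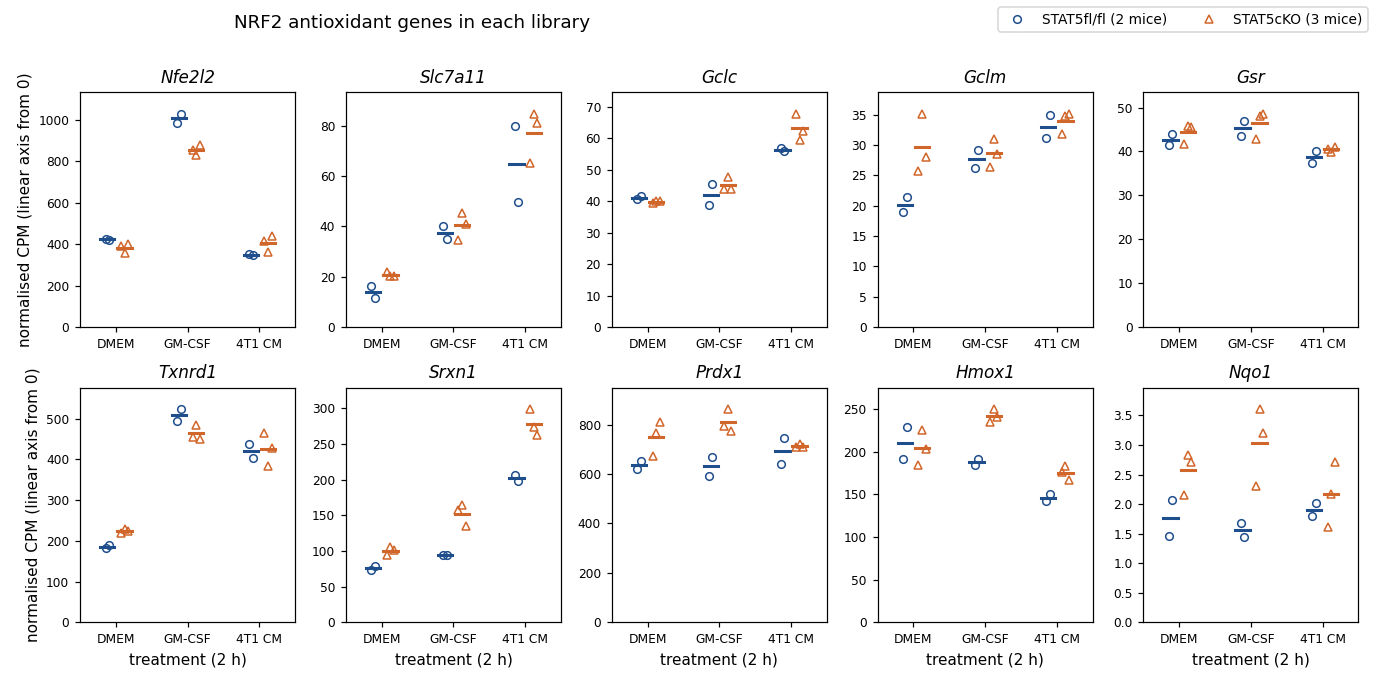
Normalized CPM (linear axes from 0, a scale for each gene) of the 10 genes after 2 h in DMEM, GM-CSF or 4T1 CM. Circles are the 2 STAT5fl/fl libraries, triangles the 3 STAT5cKO libraries and bars the group means. Nfe2l2 stands at 832 CPM or more in each GM-CSF library and at 438 CPM or less elsewhere, while Slc7a11 and Srxn1 climb from DMEM through GM-CSF to 4T1 CM.

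Nfe2l2 (ENSMUSG00000015839, chr2:75675513-75704641 on the minus strand of GRCm38) was measured with 6728 to 19136 counts per library. In STAT5fl/fl macrophages it stood at 427 and 420 CPM in DMEM, 987 and 1030 CPM with GM-CSF, and 352 and 347 CPM with 4T1 CM. In STAT5cKO macrophages it stood at 392, 358 and 400 CPM in DMEM, 854, 832 and 878 CPM with GM-CSF, and 414, 361 and 438 CPM with 4T1 CM. The 5 GM-CSF libraries lay far above the other 10, and the 2 genotypes did not overlap with GM-CSF. GM-CSF raised Nfe2l2 by 1.25 ± 0.08 in STAT5fl/fl (2.38-fold, edgeR adjusted p = 1.39e-09) and by 1.16 ± 0.07 in STAT5cKO (2.23-fold, edgeR adjusted p = 3.72e-10). With 4T1 CM it was lower than with GM-CSF, by a log2 change of -1.53 ± 0.08 in STAT5fl/fl and -1.08 ± 0.07 in STAT5cKO (edgeR adjusted p = 1.57e-10 and 5.61e-10). Against DMEM, 4T1 CM lowered Nfe2l2 slightly in STAT5fl/fl (-0.27 ± 0.08, edgeR adjusted p = 0.00919) and gave 0.08 ± 0.07 in STAT5cKO (edgeR adjusted p = 0.352). The small decrease in STAT5fl/fl kept its size but not its call without mouse 112, 113 or 114, with edgeR adjusted p of 0.102, 0.113 and 0.0172.

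Slc7a11 (ENSMUSG00000027737, chr3:49892526-50443614, minus strand) encodes xCT, the transporter that brings in cystine, from which cysteine for glutathione is made. It was the most responsive of the 10. STAT5fl/fl libraries held 16.2 and 11.7 CPM in DMEM, 40.1 and 35 CPM with GM-CSF, and 80 and 49.8 CPM with 4T1 CM. The STAT5cKO libraries held 22, 20.3 and 20.1 CPM in DMEM, 34.6, 45.5 and 41.1 CPM with GM-CSF, and 65.2, 84.8 and 81.2 CPM with 4T1 CM. Within each genotype the 3 treatments formed 3 separate steps. GM-CSF raised it by 1.43 ± 0.21 in STAT5fl/fl and 0.96 ± 0.16 in STAT5cKO (2.69-fold and 1.95-fold, edgeR adjusted p = 3.39e-05 and 0.000183). 4T1 CM raised it by 2.22 ± 0.20 and 1.89 ± 0.16 against DMEM (4.67-fold and 3.71-fold, edgeR adjusted p = 7.81e-08 and 2.1e-08). The step from GM-CSF to 4T1 CM was 0.79 ± 0.19 in STAT5fl/fl and 0.93 ± 0.15 in STAT5cKO (edgeR adjusted p = 0.00251 and 7.27e-05). In STAT5fl/fl that step rested on mouse 112, without which it was 0.51 with an edgeR adjusted p of 0.0585.

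The 250 bases before the Slc7a11 start site are shown because this was the only promoter found for the 10 genes to hold the letters TGATGCAA, a form of the element that binds ATF4 with C/EBP proteins, on both strands (GRCm38, chr3:50443614-50443863, printed 5′ to 3′ along the gene's strand, with matches in capitals).
Slc7a11: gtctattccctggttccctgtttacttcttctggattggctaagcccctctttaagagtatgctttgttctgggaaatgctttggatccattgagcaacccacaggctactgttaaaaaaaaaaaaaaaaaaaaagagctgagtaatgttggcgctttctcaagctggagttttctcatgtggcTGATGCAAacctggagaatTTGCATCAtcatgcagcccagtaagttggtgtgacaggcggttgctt
The 2 matches begin 66 and 47 bases before the start site. Only 0.791% of 32851 RefSeq promoter windows of this length hold these letters on either strand.

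Gclc and Gclm encode the catalytic and the modifier subunit of glutamate-cysteine ligase, which carries out the rate-limiting step of glutathione synthesis. Gclc (ENSMUSG00000032350, chr9:77754535-77794485, plus strand) stood at 40.6 and 41.5 CPM in DMEM, 38.7 and 45.4 CPM with GM-CSF, and 57 and 55.8 CPM with 4T1 CM in STAT5fl/fl. The STAT5cKO values were 39.3, 40 and 40.2 CPM in DMEM, 44, 47.6 and 43.8 CPM with GM-CSF, and 67.8, 59.3 and 62.4 CPM with 4T1 CM. All 5 libraries with 4T1 CM lay above all 10 others. 4T1 CM raised Gclc by 0.46 ± 0.08 in STAT5fl/fl and 0.67 ± 0.07 in STAT5cKO (edgeR adjusted p = 0.000197 and 2.6e-07), and Gclc was also higher with 4T1 CM than with GM-CSF, by 0.42 ± 0.08 and 0.48 ± 0.07 (edgeR adjusted p = 0.000629 and 1.57e-05). Without mouse 112 the latter step in STAT5fl/fl was 0.30 with an edgeR adjusted p of 0.0604. For GM-CSF against DMEM the differences were 0.04 ± 0.09 and 0.18 ± 0.07 (edgeR adjusted p = 0.773 and 0.0487).

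Gclm (ENSMUSG00000028124, chr3:122245557-122270732, plus strand) followed another course. It stood at 19 and 21.4 CPM in DMEM, 26.2 and 29.2 CPM with GM-CSF, and 31.2 and 34.9 CPM with 4T1 CM in STAT5fl/fl. The STAT5cKO libraries were already at 25.8, 35.2 and 28 CPM in DMEM, with 26.4, 31.1 and 28.6 CPM with GM-CSF and 31.8, 34.8 and 35.2 CPM with 4T1 CM. Both STAT5fl/fl libraries in DMEM thus lay under every other library, while among the STAT5cKO libraries the DMEM values overlapped both treatments. 4T1 CM raised Gclm by 0.71 ± 0.13 in STAT5fl/fl (1.63-fold, edgeR adjusted p = 0.000216), a call that was lost without mouse 113 (0.71, edgeR adjusted p = 0.0115). GM-CSF gave 0.46 ± 0.13 there (edgeR adjusted p = 0.0112), which passed with the mouse as a block (0.45, edgeR adjusted p = 0.000985). In STAT5cKO the differences were -0.05 ± 0.10 for GM-CSF and 0.19 ± 0.10 for 4T1 CM (edgeR adjusted p = 0.755 and 0.129). A second gene on the same strand overlaps Gclm and took 665 counts over all libraries, against 9124 for Gclm, and fragments over both could not be assigned to either.

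Gsr (ENSMUSG00000031584, chr8:33652523-33698163, plus strand), the reductase that regenerates glutathione from its oxidized form, was the steadiest of the 10. It ranged from 41.5 to 46.9 CPM over the 4 STAT5fl/fl libraries in DMEM or GM-CSF, and was 37.3 and 40.2 CPM with 4T1 CM. In STAT5cKO it ranged from 41.8 to 48.6 CPM over the 6 libraries in DMEM or GM-CSF, and was 40.6, 39.8 and 41 CPM with 4T1 CM. Every library with 4T1 CM was under every other library, but the differences were small. They came to -0.23 ± 0.08 and -0.20 ± 0.07 against GM-CSF (edgeR adjusted p = 0.0353 and 0.0215) and to -0.14 ± 0.08 and -0.13 ± 0.07 against DMEM (edgeR adjusted p = 0.163 and 0.103), none of which passed the test.

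Txnrd1 (ENSMUSG00000020250, chr10:82833951-82897712, plus strand) encodes the cytosolic thioredoxin reductase. STAT5fl/fl libraries held 183 and 189 CPM in DMEM, 495 and 524 CPM with GM-CSF, and 439 and 404 CPM with 4T1 CM. The STAT5cKO libraries held 219, 230 and 225 CPM in DMEM, 455, 485 and 451 CPM with GM-CSF, and 464, 385 and 428 CPM with 4T1 CM. Every treated library stood well above every DMEM library. GM-CSF raised Txnrd1 by 1.45 ± 0.08 in STAT5fl/fl and 1.05 ± 0.06 in STAT5cKO (2.74-fold and 2.06-fold, edgeR adjusted p = 1.58e-10 and 1.06e-09), and 4T1 CM by 1.18 ± 0.08 and 0.92 ± 0.06 (2.27-fold and 1.89-fold, edgeR adjusted p = 1.69e-09 and 2.19e-09). In STAT5fl/fl it was lower with 4T1 CM than with GM-CSF by a log2 change of -0.27 ± 0.08 (edgeR adjusted p = 0.00924), a call lost without mouse 112, 113 or 116 (edgeR adjusted p = 0.0232, 0.321 and 0.0181), with TMM scaling (0.0111) and in a fit of the compared groups alone (0.0218). In STAT5cKO that difference was -0.12 ± 0.06 (edgeR adjusted p = 0.127).

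Srxn1 (ENSMUSG00000032802, chr2:152105516-152111376, plus strand) encodes sulfiredoxin, which repairs overoxidized peroxiredoxins. In STAT5fl/fl it stood at 73.7 and 79.3 CPM in DMEM, 94.4 CPM in both libraries with GM-CSF, and 206 and 198 CPM with 4T1 CM. In STAT5cKO it stood at 94.4, 106 and 101 CPM in DMEM, 157, 164 and 135 CPM with GM-CSF, and 299, 273 and 263 CPM with 4T1 CM. No 2 treatments overlapped within a genotype, and no 2 genotypes within a treatment. 4T1 CM raised Srxn1 by 1.40 ± 0.09 in STAT5fl/fl and 1.47 ± 0.07 in STAT5cKO (2.64-fold and 2.76-fold, edgeR adjusted p = 7.63e-10 and 1.71e-11). It stayed higher with 4T1 CM than with GM-CSF, by 1.10 ± 0.09 and 0.87 ± 0.07 (edgeR adjusted p = 2.87e-08 and 2.17e-08). GM-CSF raised it by 0.60 ± 0.07 in STAT5cKO (edgeR adjusted p = 5.14e-06) and gave 0.30 ± 0.09 in STAT5fl/fl (edgeR adjusted p = 0.0125), which passed with the mouse as a block (0.30, edgeR adjusted p = 0.00707).

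Prdx1 (ENSMUSG00000028691, chr4:116685544-116700822, plus strand) encodes peroxiredoxin 1, an abundant peroxide-reducing enzyme and a substrate of sulfiredoxin. STAT5fl/fl libraries held 621 and 654 CPM in DMEM, 592 and 669 CPM with GM-CSF, and 639 and 747 CPM with 4T1 CM. The STAT5cKO libraries held 671, 766 and 810 CPM in DMEM, 793, 863 and 775 CPM with GM-CSF, and 709, 721 and 707 CPM with 4T1 CM. No treatment passed the test in either genotype. The differences from DMEM lay between -0.07 and 0.12, and the lowest edgeR adjusted p among the 6 treatment comparisons was 0.0542, for 4T1 CM against GM-CSF in STAT5cKO.

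Srxn1 and Prdx1 act on the same substrate cycle and their promoters share a motif, yet only the former changed with treatment, so both sequences are shown. Capitals mark matches, on either strand, to TGANTCAGC, the form bound by NRF2 with a small MAF, and to the AP-1 heptamer TGANTCA, which lies within it. In Prdx1 the long match is also a match to the antioxidant response element core TGACNNNGC. The windows are the 250 bases before the RefSeq start site on GRCm38, chr2:152105274-152105523 for Srxn1 and chr4:116685349-116685598 for Prdx1.
Srxn1: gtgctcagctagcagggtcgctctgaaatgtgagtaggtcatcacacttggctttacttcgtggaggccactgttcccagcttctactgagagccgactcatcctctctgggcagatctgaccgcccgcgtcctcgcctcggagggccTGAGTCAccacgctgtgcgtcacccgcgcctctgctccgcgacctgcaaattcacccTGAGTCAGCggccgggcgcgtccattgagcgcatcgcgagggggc
Prdx1: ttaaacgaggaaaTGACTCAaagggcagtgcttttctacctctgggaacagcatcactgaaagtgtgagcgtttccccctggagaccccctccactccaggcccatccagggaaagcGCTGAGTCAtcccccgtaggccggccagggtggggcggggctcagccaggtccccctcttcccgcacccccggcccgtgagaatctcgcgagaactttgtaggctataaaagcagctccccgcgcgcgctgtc
The long match begins 45 bases before the start site in Srxn1 and 133 bases before it in Prdx1, and each window holds a further AP-1 match, beginning 102 and 237 bases before the start site. Of all 32851 windows, 1.02% hold TGANTCAGC, 6.75% TGANTCA and 10.2% TGACNNNGC.

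Windows were found for 7 of the 10 genes, 9 windows in all, since Txnrd1 has 3 start sites. Hmox1, Gclc and Gsr were not among them. TGACNNNGC was matched before Nfe2l2, Gclm, Prdx1 and the second Txnrd1 start site, TGANTCAGC before Srxn1 and Prdx1, and TGATGCAA before Slc7a11. The windows of Nqo1 and of the other Txnrd1 start sites held none of the 4 motifs. Only the 250 bases before a start site were searched, so elements further upstream or after the start site would be missed.

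**Figure D2:**
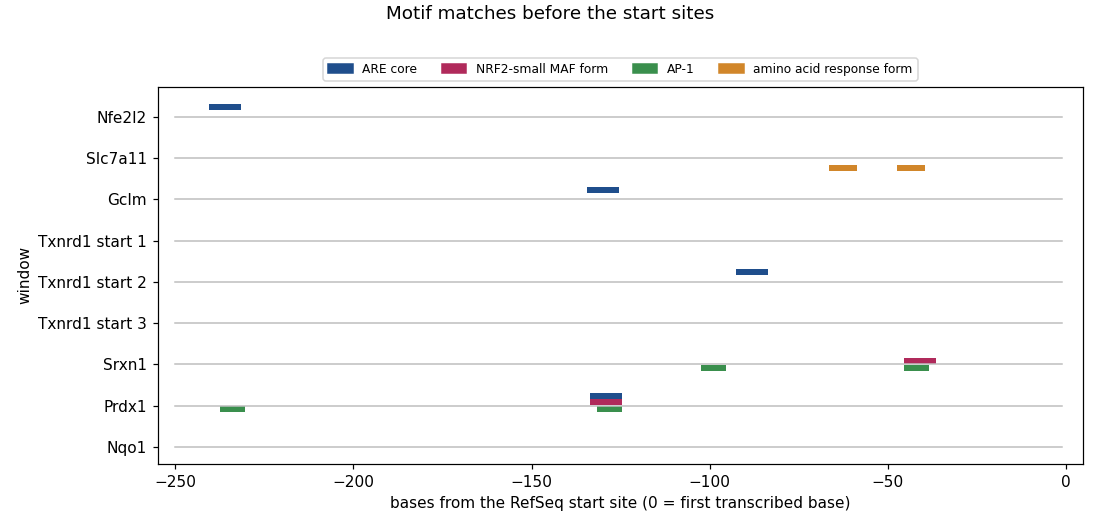
Positions of motif matches in the 250 bases before each RefSeq start site, as bases from the start site. Bars are matches on either strand to the antioxidant response element (ARE) core TGACNNNGC, the NRF2-small MAF form TGANTCAGC, AP-1 TGANTCA and the amino acid response form TGATGCAA. Srxn1 and Prdx1 each hold an NRF2-small MAF match that overlaps an AP-1 match, and Slc7a11 holds 2 matches to the amino acid response form.

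Hmox1 (ENSMUSG00000005413, chr8:75093621-75100589, plus strand) encodes heme oxygenase 1, which breaks down heme and is induced by NRF2 once the repressor BACH1 leaves its enhancers. It stood at 191 and 229 CPM in DMEM, 184 and 191 CPM with GM-CSF, and 142 and 150 CPM with 4T1 CM in STAT5fl/fl. In STAT5cKO it stood at 184, 225 and 203 CPM in DMEM, 235, 250 and 241 CPM with GM-CSF, and 176, 183 and 167 CPM with 4T1 CM. The 3 STAT5cKO libraries with GM-CSF were the highest and the 2 STAT5fl/fl libraries with 4T1 CM the lowest of all 15. 4T1 CM lowered Hmox1 in STAT5fl/fl (-0.53 ± 0.09, 0.694 of its DMEM level, edgeR adjusted p = 0.000132), a call lost without mouse 113 (-0.43, edgeR adjusted p = 0.0153). In STAT5cKO, 4T1 CM gave -0.22 ± 0.07 and GM-CSF 0.24 ± 0.07 (edgeR adjusted p = 0.0215 and 0.0169), and both passed with the mouse as a block (edgeR adjusted p = 0.00567 and 0.00337). Hmox1 was lower with 4T1 CM than with GM-CSF by a log2 change of -0.37 ± 0.09 in STAT5fl/fl and -0.46 ± 0.07 in STAT5cKO (edgeR adjusted p = 0.00391 and 7.26e-05). The former call was lost without mouse 112 or 113 (edgeR adjusted p = 0.0368 and 0.0398).

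Nqo1 (ENSMUSG00000003849, chr8:107388225-107403206, minus strand), a quinone reductase that serves as a standard NRF2 reporter in many tissues, was barely expressed, with 27 to 81 counts per library. It lay between 1.45 and 2.07 CPM in the 6 STAT5fl/fl libraries and between 1.61 and 3.61 CPM in the 9 STAT5cKO libraries. No treatment passed the test, and the standard errors of 0.21 to 0.34 were the largest of the 10 genes in each comparison.

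GM-CSF against DMEM raised 3 of the 10 genes in STAT5fl/fl (Nfe2l2, Slc7a11 and Txnrd1) and lowered none, in a comparison that called 28.5% of all tested genes. In STAT5cKO it raised 4 (these genes and Srxn1) and lowered none, where 23.5% of all genes were called. The median of the 10 log2 fold changes was 0.19 in STAT5fl/fl and 0.24 in STAT5cKO, against -0.01 and 0 over all genes. With the mouse as a block the counts were 5 in both genotypes. Of all 13005 tested genes, that fit called 4007 in STAT5fl/fl and 3336 in STAT5cKO, in place of 3704 and 3053. The summed dendritic cell list was also higher with GM-CSF than in DMEM in both genotypes, and its part in these results was not tested.

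4T1 CM against DMEM raised 5 genes in STAT5fl/fl (Slc7a11, Srxn1, Txnrd1, Gclm and Gclc) and lowered 2 (Hmox1 and Nfe2l2), where 37.4% of all genes were called. Without mouse 113, 4 remained called, and Nfe2l2, Hmox1 and Gclm were lost. In STAT5cKO it raised 4 (Slc7a11, Srxn1, Txnrd1 and Gclc) and lowered none, where 37.6% of all genes were called. The medians over the 10 were 0.29 and 0.14, against 0.02 and 0.01 over all genes. The summed mammary tumor epithelium markers moved with this treatment too, to 3.16 to 4.38 CPM in STAT5fl/fl and 1.23 to 2.17 CPM in STAT5cKO, as they had with GM-CSF in STAT5fl/fl, and their part in these results was not tested. Both comparisons with DMEM share the DMEM libraries.

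Between the stimuli, 6 genes differed in STAT5fl/fl, where 30.5% of all genes were called: Srxn1, Slc7a11 and Gclc were higher with 4T1 CM and Nfe2l2, Hmox1 and Txnrd1 were lower. Without mouse 112 only Nfe2l2 and Srxn1 remained called, and without mouse 113 Hmox1 and Txnrd1 were lost. In STAT5cKO 5 genes differed, where 34.1% of all genes were called: Slc7a11, Srxn1 and Gclc were higher with 4T1 CM and Nfe2l2 and Hmox1 were lower. The medians over the 10 were 0.20 and -0.16, against 0.01 over all genes in both.

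**Figure D3:**
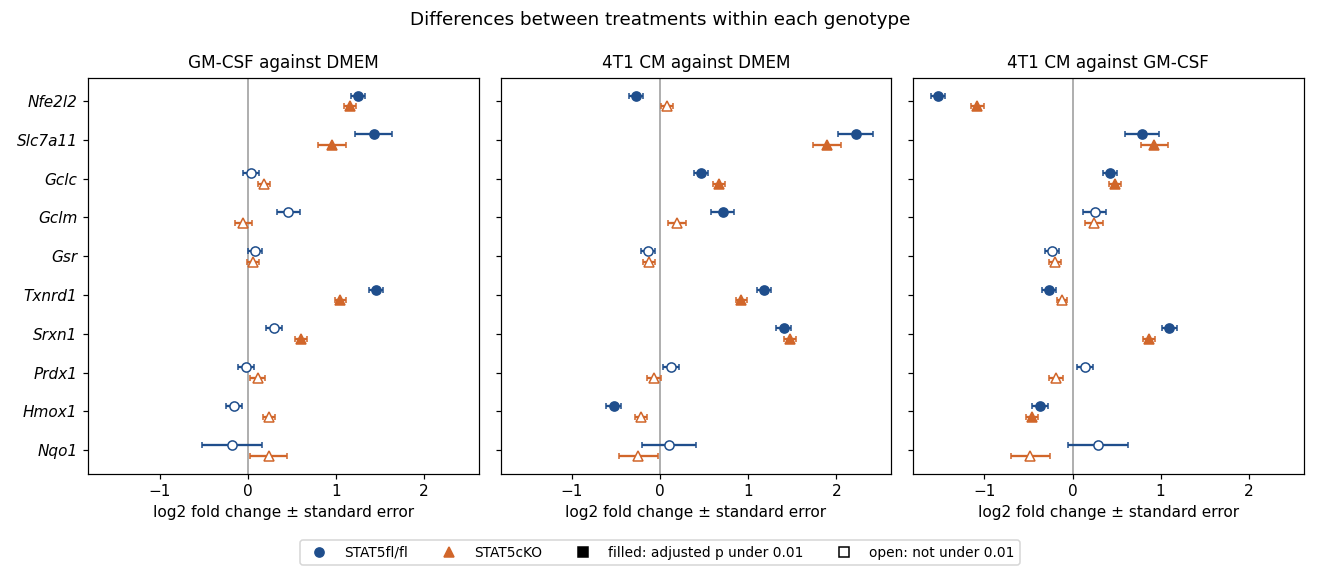
Log2 fold changes ± standard error of the 10 genes between treatments, with STAT5fl/fl as circles and STAT5cKO as triangles. Filled symbols have an adjusted p under 0.01. Nfe2l2 lies at 1.16 or more for GM-CSF and between -0.27 and 0.08 for 4T1 CM against DMEM, whereas Srxn1 lies at 1.40 and 1.47 for 4T1 CM.

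Only the STAT5cKO mice carried Csf1r-iCre, so that Cre and the loss of STAT5 cannot be told apart in these comparisons. Each of the 10 genes that passed between genotypes was higher in STAT5cKO. In DMEM, 2 genes were higher, where 2.49% of all tested genes were called. These were Gclm (0.55 ± 0.12, 1.47-fold, edgeR adjusted p = 0.00964) and Srxn1 (0.40 ± 0.08, 1.32-fold, edgeR adjusted p = 0.0075). Both calls were lost when mouse 112, 113, 115 or 116 was left out, with edgeR adjusted p of 0.136, 0.0681, 0.037 and 0.0267 for Gclm and 0.131, 0.0701, 0.0326 and 0.0116 for Srxn1. Txnrd1 was at 0.27 ± 0.07 (edgeR adjusted p = 0.0322) and Slc7a11 at 0.58 ± 0.20 (edgeR adjusted p = 0.092), with no overlap between the genotypes in either. The median over the 10 was 0.25 in DMEM, against 0 over all genes.

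With GM-CSF, 3 genes were higher in STAT5cKO, where 9.8% of all genes were called: Srxn1 (0.69 ± 0.08, 1.61-fold, edgeR adjusted p = 1.12e-05), Hmox1 (0.36 ± 0.08, 1.29-fold, edgeR adjusted p = 0.00589) and Prdx1 (0.36 ± 0.09, 1.29-fold, edgeR adjusted p = 0.00667). Leaving out mouse 112, 113, 115 or 116 removed the calls of Hmox1 (edgeR adjusted p = 0.0456, 0.0285, 0.0154 and 0.0223) and Prdx1 (0.0974, 0.0141, 0.0422 and 0.0105), so that 1 gene remained called. Nqo1 was at 0.96 ± 0.29 (edgeR adjusted p = 0.0282), and passed without mouse 114 (1.14, edgeR adjusted p = 0.00832). Nfe2l2 was at -0.24 ± 0.07 (edgeR adjusted p = 0.0323), and passed in a fit of the compared groups alone (-0.24, edgeR adjusted p = 0.0052). The median over the 10 was 0.11, against 0 over all genes.

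With 4T1 CM, 1 gene was higher in STAT5cKO, where 7.7% of all genes were called: Srxn1 (0.46 ± 0.08, 1.38-fold, edgeR adjusted p = 0.000702). The call was lost without mouse 112 or 113 (edgeR adjusted p = 0.012 and 0.0349) and in a fit of the compared groups alone (0.0112). Hmox1 was at 0.27 ± 0.08 (edgeR adjusted p = 0.0417) and Nfe2l2 at 0.21 ± 0.07 (edgeR adjusted p = 0.0689, and 0.00912 without mouse 115). The median over the 10 was 0.17, against 0.01 over all genes. Markers moved with genotype as well: the summed macrophage and fibroblast lists were higher in STAT5cKO under every treatment without overlap, as given above. The summed T cell list was lower without overlap under every treatment, and so was the summed mast cell list, of which Kit is the main part and Cpa3 at 0, at 6.29 to 23.5 CPM in STAT5fl/fl and 1.18 to 7.48 CPM in STAT5cKO. Their part in the genotype differences was not tested.

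**Figure D4:**
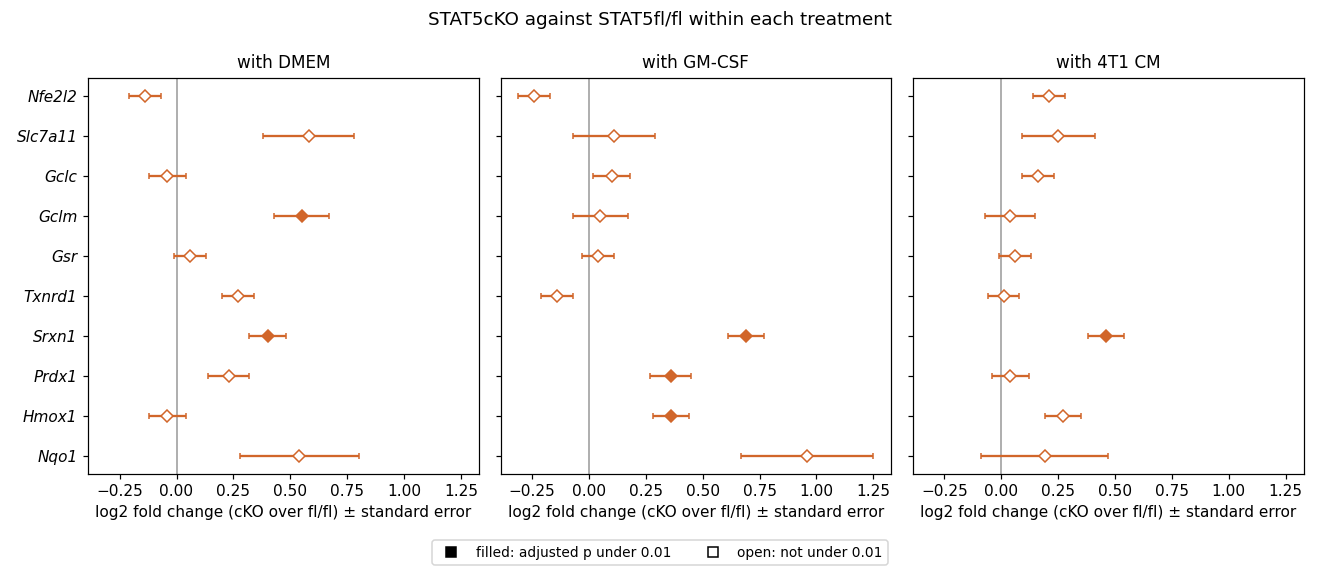
Log2 fold changes ± standard error of STAT5cKO over STAT5fl/fl under each treatment, with filled symbols for an adjusted p under 0.01. Srxn1 lies at 0.40, 0.69 and 0.46 and is the only filled symbol in all 3 panels, while Gsr lies between 0.04 and 0.06 in each.

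Whether the response to a treatment differed between genotypes was tested as an interaction, in which a positive value means a more positive change in STAT5cKO. None of the 10 genes passed in any of the 3 interactions, by edgeR at an adjusted p under 0.01, where 3.11% of all genes were called for GM-CSF against DMEM, 1.27% for 4T1 CM against DMEM and 1.47% for 4T1 CM against GM-CSF. At an unadjusted p under 0.05 there were 4, 4 and 2 of the 10 genes. Over all 13005 tested genes there were 1901, 1865 and 1573 at that threshold. The nearest for GM-CSF was Txnrd1, with an interaction of -0.41 ± 0.10 (edgeR adjusted p = 0.0237), which DESeq2 called (adjusted p = 0.00322). Its GM-CSF response was 1.44 and 1.47 in the 2 STAT5fl/fl mice and 1.06, 1.08 and 1.0 in the 3 STAT5cKO mice, with no overlap. For Nfe2l2 the interaction for 4T1 CM against GM-CSF was 0.45 ± 0.10 (edgeR adjusted p = 0.0242), and it passed with the mouse as a block (0.44, edgeR adjusted p = 0.00304), with DESeq2 (adjusted p = 0.00149), without the low-count filter (edgeR adjusted p = 0.00765) and without mouse 115 (0.50, edgeR adjusted p = 0.00619).

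The responses of single mice did not overlap between genotypes for 5 of the 10 genes with GM-CSF against DMEM (Hmox1, Gclm, Slc7a11, Srxn1 and Txnrd1), 6 with 4T1 CM against DMEM (Nfe2l2, Hmox1, Gclm, Gclc, Slc7a11 and Txnrd1) and 5 with 4T1 CM against GM-CSF (Nfe2l2, Hmox1, Nqo1, Srxn1 and Prdx1), although no interaction passed. They had opposite signs for 1, 1 and 2 genes, namely Hmox1, Nfe2l2, and Nqo1 with Prdx1. The share of all 13005 tested genes that separate in these ways was not counted. With 2 mice against 3, separation can also arise without a difference between genotypes. These counts are therefore descriptions and show nothing particular to the 10 genes. The Nqo1 responses rest on only 27 to 81 counts per library. For Nfe2l2, 4T1 CM minus DMEM was -0.28 and -0.27 in the STAT5fl/fl mice and 0.08, 0.01 and 0.13 in the STAT5cKO mice (interaction 0.35 ± 0.10, edgeR adjusted p = 0.0872). Hmox1 with GM-CSF moved by -0.05 and -0.26 in STAT5fl/fl and by 0.35, 0.15 and 0.24 in STAT5cKO (interaction 0.40 ± 0.12, edgeR adjusted p = 0.0622). Gclm with GM-CSF moved by 0.46 and 0.45 in STAT5fl/fl and by 0.03, -0.18 and 0.03 in STAT5cKO (interaction -0.50 ± 0.17, edgeR adjusted p = 0.117). The Gclm values include the higher DMEM level of STAT5cKO, since each response is taken from the DMEM library of the same mouse.

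**Figure D5:**
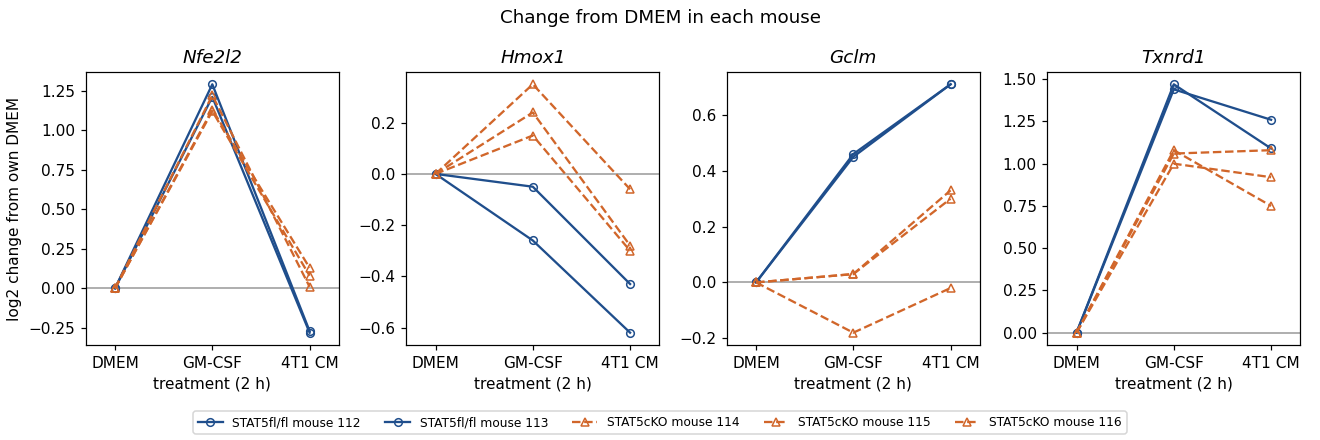
Log2 level in each mouse relative to its own DMEM library for 4 genes, with STAT5fl/fl mice as solid lines and circles and STAT5cKO mice as dashed lines and triangles. Hmox1 with GM-CSF lies at -0.05 and -0.26 in STAT5fl/fl and between 0.15 and 0.35 in STAT5cKO, and Txnrd1 with GM-CSF at 1.44 and 1.47 against 1.0 to 1.08.

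The proteins that hold, release or partner NRF2 were described with a list of 12 transcripts, all tested. GM-CSF raised 6 and lowered 2 of them in STAT5fl/fl, and raised 6 and lowered none in STAT5cKO (median log2 fold change 0.27 and 0.19, against -0.01 and 0 over all genes). The rises were led by Maff, a small MAF partner of NRF2, at 3.93 ± 0.13 and 3.36 ± 0.12 (edgeR adjusted p = 2.26e-13 and 4.47e-13). It went from a mean of 3.76 CPM in DMEM to 57.2 CPM in STAT5fl/fl, and from 2.78 to 28.5 CPM in STAT5cKO. Next were Sqstm1, the autophagy adaptor p62 that sequesters KEAP1, at 0.70 ± 0.08 and 0.80 ± 0.06 (edgeR adjusted p = 1.31e-06 and 2.61e-08), and the related factor Nfe2l1 at 0.59 ± 0.07 and 0.41 ± 0.05 (edgeR adjusted p = 1.58e-06 and 1.6e-05). The 2 that fell in STAT5fl/fl were Mafk, another small MAF, by a log2 change of -0.52 ± 0.10, and Keap1, by -0.39 ± 0.08 (edgeR adjusted p = 0.000568 and 0.000991). Of this list, 66.7% was called in STAT5fl/fl and 50% in STAT5cKO, beside 28.5% and 23.5% of all genes.

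With 4T1 CM against DMEM, 1 transcript of the NRF2 control list rose and 3 fell in STAT5fl/fl, and 3 rose and 1 fell in STAT5cKO (medians -0.06 and -0.03). Maff rose by 2.81 ± 0.13 and 3.55 ± 0.11 (edgeR adjusted p = 2.14e-11 and 6.78e-14) and Keap1 fell by a log2 change of -0.37 ± 0.08 and -0.52 ± 0.07 (edgeR adjusted p = 0.00102 and 3.53e-06). Bach1, the repressor of Hmox1, rose in STAT5cKO (0.34 ± 0.06, edgeR adjusted p = 0.000284). Mafk and Sqstm1 fell in STAT5fl/fl (-0.74 ± 0.10 and -0.44 ± 0.08, edgeR adjusted p = 1.17e-05 and 0.000139). The list's share called was 33.3% in both genotypes, beside 37.4% and 37.6% of all genes. Maff was the only transcript of the list to differ between genotypes, with GM-CSF (-1.0 ± 0.09, edgeR adjusted p = 3.71e-07) and the only one with an interaction that passed, for 4T1 CM against GM-CSF (1.30 ± 0.13, edgeR adjusted p = 1.09e-05). In each of these comparisons 8.33% of the list was called, beside 9.8% and 1.47% of all genes.

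Of 27 further genes known as NRF2 targets, 26 were tested. GM-CSF raised 3 and lowered 3 in each genotype, with medians of -0.01 and -0.03. These are 23.1% of those tested, beside 28.5% of all genes in STAT5fl/fl and 23.5% in STAT5cKO. 4T1 CM against DMEM raised 7 and lowered 2 in STAT5fl/fl and raised 8 and lowered 2 in STAT5cKO, with medians of 0.13 and 0.09 against 0.02 and 0.01 over all genes. These are 34.6% and 38.5% of those tested, near the 37.4% and 37.6% called over all genes. The largest rise was that of Glrx, a glutaredoxin that uses glutathione to reduce mixed disulfides, by 2.44 ± 0.15 and 2.14 ± 0.12 (edgeR adjusted p = 5.96e-10 and 1.07e-10), from means of 26.6 and 39.7 CPM in DMEM to 144 and 175 CPM. Abcc1, which exports glutathione conjugates, rose by 0.76 ± 0.07 and 0.52 ± 0.05 (edgeR adjusted p = 5.03e-08 and 3.25e-07). Slc40a1, the iron exporter ferroportin, went the other way: it fell by a log2 change of -2.57 ± 0.13 and -1.53 ± 0.10 with GM-CSF (edgeR adjusted p = 4.15e-11 and 2.77e-09) and of -2.84 ± 0.13 and -2.0 ± 0.10 with 4T1 CM (edgeR adjusted p = 1.18e-11 and 4.1e-11). Its DMEM mean was 166 CPM in STAT5fl/fl and 94 CPM in STAT5cKO, and its interactions passed for both stimuli against DMEM (1.04 ± 0.16 and 0.84 ± 0.16, edgeR adjusted p = 0.000572 and 0.00753). Between genotypes, 2 of these targets were higher and 1 lower in STAT5cKO in DMEM, 3 were higher with GM-CSF and 1 with 4T1 CM. These are 11.5%, 11.5% and 3.85% of those tested, beside 2.49%, 9.8% and 7.7% of all genes. Esd, a hydrolase of glutathione thioesters, was among the higher in DMEM and with GM-CSF (0.62 ± 0.08 and 0.64 ± 0.08, edgeR adjusted p = 0.000217 and 1.7e-05).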

How the data were processed

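RNA-seq of 15 BMDM libraries was analysed from the table of counts the authors deposited: whole-number fragments per gene, not normalized, beside gene positions and exon lengths. The submitters' processing notes and the methods name Trimmomatic 0.33, HISAT2 2.1.0 with GRCm38 and featureCounts 1.6.2, counting by strand. Groups and mouse numbers came from the library titles. From the counts, 13005 of the 55385 genes passed a minimum of 1 CPM, exceeded in 2 or more libraries. A symbol was found for 55144 of the 55385. Counts were normalized by RLE and tested in R 4.3.3 with edgeR 4.0.16 (glmQLFit and glmQLFTest, 1 coefficient per group, all 15 libraries, two-sided, Benjamini-Hochberg adjusted p under 0.01). A standard error is the log2 fold change divided by the square root of F. The prior count of 2 entered only the log2 CPM used for correlations. CPM and RPKM were computed from the counts.

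The method was tested on simulated data. No pair of replicates agreed within sampling noise (chi-square per degree of freedom 4.49 to 24.3). Libraries with the same mouse number were taken as 1 animal: their deviations from the group means correlated by 0.142 on average in STAT5fl/fl and 0.156 in STAT5cKO. The p-values of the main fit measure the spread of libraries within groups, which mixes mouse, culture and library. That fit takes the libraries as independent, although each mouse gave a library to every treatment. The alternatives were TMM, no filter, DESeq2 1.42.0, the compared groups alone, an adjusted p under 0.05, the mouse as a block or random effect (limma 3.58.1), leaving out each mouse and, chosen after seeing the data, edgeR's legacy quasi-likelihood form. Named genes are the 10 members, Stat5a and Stat5b, from each list at most 4 called genes upward and 4 downward, taken in order of adjusted p in either genotype, and the 3 genes most like each called member. The members and lists were chosen with earlier results of these data known. Promoter windows are from RefSeq on GRCm38.p6, matched by symbol, without the bases after the start site.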

Additional observations from a re-analysis of the deposited data

How the results depend on the processing

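None of the 35 called differences of the 10 genes changed sign under any alternative. Of the 85 that were not called, 20 took the other sign with 1 mouse left out, all with an edgeR adjusted p of 0.352 or more with every mouse, and none under another alternative. In addition, TMM, the legacy quasi-likelihood form and the mouse as a random effect moved no count of called genes by over 1.5 times. Counts that moved further were as follows. GM-CSF against DMEM in STAT5fl/fl gave 5 called genes in place of 3 with DESeq2, the compared groups alone, an adjusted p under 0.05 and the replicate block, with Gclm and Srxn1 added. For STAT5cKO against STAT5fl/fl, the compared groups alone gave 1 in place of 2 in DMEM (Gclm lost) and 0 in place of 1 with 4T1 CM (Srxn1 lost), and an adjusted p under 0.05 gave 5 in place of 3 with GM-CSF and 2 in place of 1 with 4T1 CM. The interaction for GM-CSF against DMEM gave 1 (Txnrd1) in place of 0 with DESeq2, the compared groups alone and an adjusted p under 0.05. That for 4T1 CM against GM-CSF gave 1 (Nfe2l2) with no filter, DESeq2, an adjusted p under 0.05 and the replicate block. Beside the calls given above, the block changed no other call of the 10 genes. With 1 mouse left out, called genes ranged from 4 to 7 for 4T1 CM against DMEM and 2 to 6 for 4T1 CM against GM-CSF in STAT5fl/fl, from 0 to 2 in DMEM, 1 to 4 with GM-CSF and 0 to 2 with 4T1 CM between genotypes, and from 0 to 1 for the interaction of 4T1 CM against GM-CSF. A lone STAT5fl/fl mouse is then assumed to vary like the other groups. The cause of these changes was not tested.

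Over all genes, calls between genotypes in DMEM went from 324 to 557 with DESeq2, and those with 4T1 CM from 1001 to 292 in the compared groups alone. For the interaction of 4T1 CM against DMEM, 165 became 363 with DESeq2, 79 in the compared groups alone and 302 with the block, and for 4T1 CM against GM-CSF 191 became 308 with DESeq2. Without mouse 113, calls in STAT5fl/fl fell to 1747 for GM-CSF against DMEM, 2680 for 4T1 CM against DMEM and 1706 for 4T1 CM against GM-CSF, in place of 3704, 4867 and 3968. Those between genotypes then fell to 47 in DMEM, 554 with GM-CSF and 335 with 4T1 CM, and those for the interactions to 135, 24 and 79. In STAT5cKO the lowest counts were without mouse 115, at 1835, 3721 and 3041 in place of 3053, 4894 and 4434. The shares of all genes called given above rest on every mouse. An adjusted p under 0.05 gave 910, 2145 and 1957 calls between genotypes in DMEM, with GM-CSF and with 4T1 CM, in place of 324, 1275 and 1001, and 622, 423 and 346 for the interactions, in place of 404, 165 and 191. Counts of the gene lists were not refitted. The 2 STAT5fl/fl mice limit every comparison, and depth limits Nqo1, whose 27 to 81 counts leave the largest standard errors.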

Other observations

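Slc7a11 is also known as a target of ATF4, the factor of the amino acid response, and 11 genes of that response were measured. GM-CSF raised 10 of them and lowered none in STAT5fl/fl, with a median log2 fold change of 1.16 against -0.01 over all genes, and raised 8 and lowered 1 in STAT5cKO, with a median of 0.82. With GM-CSF 90.9% and 81.8% of the list were thus called, beside 28.5% and 23.5% of all genes. Slc7a5, an amino acid transporter subunit, rose by 2.16 ± 0.14 and 1.6 ± 0.12 (edgeR adjusted p = 1.53e-09 and 1.98e-08). Trib3, a pseudokinase induced by ATF4, rose by 2.13 ± 0.13 and 1.55 ± 0.11 (edgeR adjusted p = 4.62e-10 and 6.51e-09), and Chac1, which degrades glutathione, rose by 3.55 ± 0.27 and 3.25 ± 0.24 (edgeR adjusted p = 9.15e-09 and 1.41e-08). Atf4 itself rose by 1.20 ± 0.09 and 0.82 ± 0.07 (edgeR adjusted p = 6.91e-09 and 9.07e-08). 4T1 CM against DMEM raised 1 and lowered 2 of the 11 in STAT5fl/fl and raised 2 and lowered 3 in STAT5cKO, with medians of -0.10 and -0.21. With 4T1 CM 27.3% and 45.5% of the list were called, beside 37.4% and 37.6% of all genes. Slc7a5 rose in STAT5cKO, by 1.22 ± 0.13 (edgeR adjusted p = 3.25e-07). Psat1, an enzyme of serine synthesis, rose by 0.71 ± 0.14 and 0.75 ± 0.11 (edgeR adjusted p = 0.000423 and 2.43e-05), and Atf3 fell by a log2 change of -2.08 ± 0.09 and -2.07 ± 0.07 (edgeR adjusted p = 3.54e-12 and 1.28e-13). With GM-CSF, 9 of the 11 (81.8%) were lower in STAT5cKO than in STAT5fl/fl, in a comparison that called 9.8% of all genes. Slc7a11 was at 0.11 ± 0.18 there (edgeR adjusted p = 0.738). In DMEM 0 of the 11 differed between genotypes, where 2.49% of all genes were called. With 4T1 CM 2 (18.2%, Ddit3 and Slc7a5) were higher in STAT5cKO, beside 7.7% of all genes. The interaction for GM-CSF against DMEM passed for 2 (18.2%, Atf3 and Sesn2), beside 3.11% of all genes.

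Another list held 12 genes, for enzymes that remove peroxide or superoxide and for parts of the thioredoxin system, Txnip among them. Sod2, the mitochondrial superoxide dismutase, rose by 2.02 ± 0.10 and 1.76 ± 0.08 with GM-CSF (edgeR adjusted p = 5.19e-11 and 2.72e-11). With 4T1 CM it rose by 0.72 ± 0.10 and 0.76 ± 0.08 (edgeR adjusted p = 1.63e-05 and 5.97e-07). GM-CSF raised 2 and lowered 1 of the 12 in STAT5fl/fl and raised 1 and lowered 1 in STAT5cKO, and 4T1 CM raised 5 and lowered none and raised 4 and lowered 1. With GM-CSF these are 25% and 16.7% of the list, under the 28.5% and 23.5% called over all genes. With 4T1 CM they are 41.7% in both genotypes, near the 37.4% and 37.6% over all genes. The gene lowered was each time Txnip, which binds and inhibits thioredoxin. It fell with GM-CSF by a log2 change of -1.07 ± 0.10 and -0.96 ± 0.08 (edgeR adjusted p = 1.1e-07 and 4.46e-08). With 4T1 CM in STAT5cKO it fell by -0.31 ± 0.08 (edgeR adjusted p = 0.00301). Between genotypes, 1, 1 and 2 of the 12 were higher in STAT5cKO in DMEM, with GM-CSF and with 4T1 CM, and none were lower. These are 8.33%, 8.33% and 16.7% of the list, beside 2.49%, 9.8% and 7.7% of all genes. Sod2 was higher with 4T1 CM (0.40 ± 0.09, edgeR adjusted p = 0.00633). Gpx1, a glutathione peroxidase, was higher in STAT5cKO under every treatment, by 0.97 ± 0.07 in DMEM, 0.91 ± 0.07 with GM-CSF and 0.82 ± 0.07 with 4T1 CM (edgeR adjusted p = 4.36e-07, 5.21e-08 and 8.06e-07). Its group means were 312 to 397 CPM in STAT5fl/fl and 612 to 700 CPM in STAT5cKO. The macrophage marker sum was also higher in STAT5cKO, and its part in this difference was not tested.

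Of 7 genes for sources of oxidants, mostly subunits of the phagocyte NADPH oxidase, GM-CSF raised 2 in STAT5fl/fl and 3 in STAT5cKO and lowered none, and 4T1 CM raised 3 and lowered 1 in STAT5fl/fl and raised 3 and lowered none in STAT5cKO. With GM-CSF these are 28.6% and 42.9% of the list, beside 28.5% and 23.5% of all genes. With 4T1 CM they are 57.1% and 42.9%, beside 37.4% and 37.6%. Nos2, the inducible nitric oxide synthase, averaged 3.48 and 2.23 CPM with GM-CSF and 0.343 CPM or less in the other groups.

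Over the 15 libraries, the genes whose log2 CPM ran most like that of a member were Rel, Gadd45b and St3gal1 for Nfe2l2 (Pearson's r of 0.986, 0.985 and 0.984), Micall2, Tuba1c and Fos for Srxn1 (0.985, 0.984 and 0.98), Fgr, Olr1 and Map4k3 for Slc7a11 (0.976, 0.975 and 0.974) and Ehd1, Stx6 and Mex3c for Txnrd1 (0.988, 0.988 and 0.985). They were Ywhah, Med29 and Fbxo11 for Gclc (0.978, 0.972 and 0.965), Adgra3, Id3 and Rab32 for Hmox1 (0.925, 0.923 and 0.914), Hotairm1, Pald1 and Pebp1 for Gclm (0.915, 0.905 and 0.896) and Tsn, 1600002K03Rik and Tmem185a for Prdx1 (0.897, 0.89 and 0.875). These values are descriptions across libraries that share mice and treatments, picked as the highest of 13005 genes, with no test.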
